A study of Rattus norvegicus with 46 samples.

Results

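The adult sarcomere and muscle metabolism genes are 39 genes of the mature skeletal muscle fibre, chosen by symbol for their place in the contractile, calcium and energy machinery. Of the 39 symbols, 34 were rows of the authors' deposited comparison tables. For 31 of those, transcripts in the deposited count table could be matched, which gave a level in each of the 46 libraries, out of 29526 features with counts in all. All 31 passed the filter on low counts in the tendon and bursa fits. Myh1, Myh2, Ttn, Tcap and Atp2a1 were not analysed here, and Myh4, Tnnt3 and Ldb3 were read only from the authors' deposited tables. The contrast of slow with fast members therefore rested on Myh7, Myl2, Tnnt1 and Tnni1 for the slow side and on Tnni2 for the fast side, with deposited fold changes for Myh4 and Tnnt3.

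The study asked what the subacromial bursa, the thin fluid-filled tissue between the rotator cuff and the overlying bone, contributes when the supraspinatus tendon is injured. RNA from rats was enriched for poly-A transcripts and sequenced from 8 groups. The 2 control groups were supraspinatus tendon and bursa of non-operated rats, with 5 libraries each. The 4 injured tendon groups had a surgical cut through the supraspinatus tendon (tenotomy) with the bursa either kept or removed (bursectomy), and were taken 3 or 14 days later, with 6 libraries each. The 2 injured bursa groups were bursae left in place after tenotomy and taken at 3 or 14 days, again with 6 libraries each. Labels used here name no strain, sex or age. The series' design states that tendons came from both shoulders and were internally controlled per rat, but no label ties a library to a rat. The main fits therefore left libraries unpaired, and their p-values measure the spread between these libraries. Removed and kept tendon were also compared with replicate number as a block.

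The sarcomere is the repeating contractile unit of muscle, in which myosin thick filaments slide along actin thin filaments under the control of the troponin complex and calcium released from the sarcoplasmic reticulum. Slow fibres use the slow myosin heavy chain Myh7 with its light chains Myl2 and Myl3 and the slow troponins Tnnt1, Tnni1 and Tnnc1, whereas fast fibres use other myosin heavy chains with Myl1, Mylpf, Tnnt3, Tnni2 and Tnnc2. The supraspinatus tendon joins its muscle belly at a myotendinous junction, and tendon itself contains no muscle fibres.

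The promoters of 5 members are printed because they belong to genes on which the results turn: a pan-fibre actin (Acta1), a pan-fibre metabolic enzyme (Ckm), the slow and fast troponin I pair (Tnni1 and Tnni2) and the slow light chain Myl3, which had the largest fold change of the members in tendon at day 3 with the bursa kept. Each line gives the 250 bases before the RefSeq start of the gene on the GRCr8 assembly, 5′ to 3′, with capitals marking every match to CAGCTG (an E-box of the kind bound by myogenic regulators), CATTCC (the M-CAT element), TATAAA, the MEF2 element or the CArG box of serum response factor. Matches were counted on both strands and could overlap. The build behind the deposited counts was not given in the sources used here, so no expression value was placed by coordinate.
Acta1 (chr19:68784195-68784444, minus strand): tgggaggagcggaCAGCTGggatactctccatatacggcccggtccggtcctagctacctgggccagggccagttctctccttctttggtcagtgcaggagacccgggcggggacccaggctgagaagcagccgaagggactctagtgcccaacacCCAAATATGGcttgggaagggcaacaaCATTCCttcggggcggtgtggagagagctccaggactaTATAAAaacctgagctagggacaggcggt
Ckm (chr1:88189211-88189460, plus strand): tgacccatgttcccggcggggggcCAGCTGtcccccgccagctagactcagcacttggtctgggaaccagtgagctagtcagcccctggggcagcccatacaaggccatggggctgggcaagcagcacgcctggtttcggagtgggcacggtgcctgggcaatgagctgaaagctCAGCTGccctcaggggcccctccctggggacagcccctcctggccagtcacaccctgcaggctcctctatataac
Tnni1 (chr13:49781279-49781528, plus strand): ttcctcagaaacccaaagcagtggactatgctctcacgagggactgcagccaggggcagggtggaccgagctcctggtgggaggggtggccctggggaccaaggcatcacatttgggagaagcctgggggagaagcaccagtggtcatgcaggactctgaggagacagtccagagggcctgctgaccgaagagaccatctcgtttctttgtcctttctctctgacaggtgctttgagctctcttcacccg
Tnni2 (chr1:207024240-207024489, plus strand): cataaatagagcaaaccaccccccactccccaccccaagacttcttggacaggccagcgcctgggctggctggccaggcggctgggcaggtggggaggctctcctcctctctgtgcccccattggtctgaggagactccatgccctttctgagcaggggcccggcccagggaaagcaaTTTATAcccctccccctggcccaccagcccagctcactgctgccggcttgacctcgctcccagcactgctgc
Myl3 (chr8:119616844-119617093, plus strand): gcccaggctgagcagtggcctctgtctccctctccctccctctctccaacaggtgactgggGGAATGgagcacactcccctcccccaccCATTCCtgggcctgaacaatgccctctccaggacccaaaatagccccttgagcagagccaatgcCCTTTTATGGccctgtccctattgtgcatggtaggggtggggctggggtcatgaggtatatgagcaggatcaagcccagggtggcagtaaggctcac

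In the Acta1 window the E-box lay 237 bases before the start, the CArG box 94, the M-CAT element 67 and TATAAA 29. Ckm carried 2 E-boxes, at 226 and 75 bases. Myl3 carried M-CAT matches at 189 and 161 bases and a CArG box at 97. The Tnni2 window held TATAAA on the other strand, read as TTTATA, and the Tnni1 window held none of these letters. RefSeq listed promoters for 33 of the 39 members, 34 promoters in all because Myl1 has 2. Among those 34, CAGCTG was found in 29.4%, against 12% of all 33469 promoters in the table, CATTCC in 20.6% against 12.1%, TATAAA in 29.4% against 12.9%, the MEF2 element in 23.5% against 2.96% and the CArG box in 11.8% against 1.5%. Myl2, Tnnc1, Mylpf, Tnnt3, Myom2 and Tcap are absent from that table. These counts describe letters in a window and are not binding sites.

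Depth ranged from 12.4 M to 69.9 M estimated counts per library (median 17.3 M, n = 46). Tissue labels were compared with marker genes. Control tendon libraries summed to 3989 to 9412 CPM over the 7 tendon cell markers, against 61.7 to 2552 CPM in control bursa, but the 31 muscle genes also took 6.52% ± 0.99 (SD, n = 5) of all counts in control tendon, so these dissections held muscle RNA beside tendon RNA. Here and below, levels are in CPM, counts relative to a library total after TMM scaling, which corrects for composition. Several libraries stood apart on the muscle genes as a whole. Replicate 1 of day 3 bursa-removed tendon was the highest of its group for 30 of the 31 members, replicate 4 of day 14 bursa-removed tendon for 31, and replicate 1 of control bursa for 30. Replicate 6 of day 14 bursa-kept tendon was the lowest of its group for 31, and replicate 6 of day 3 bursa for 29. Where leaving out 1 of these libraries moved a result by over 1.5 times, its value without that library is given beside it for the genes on which the results turn.

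**Figure D1:**
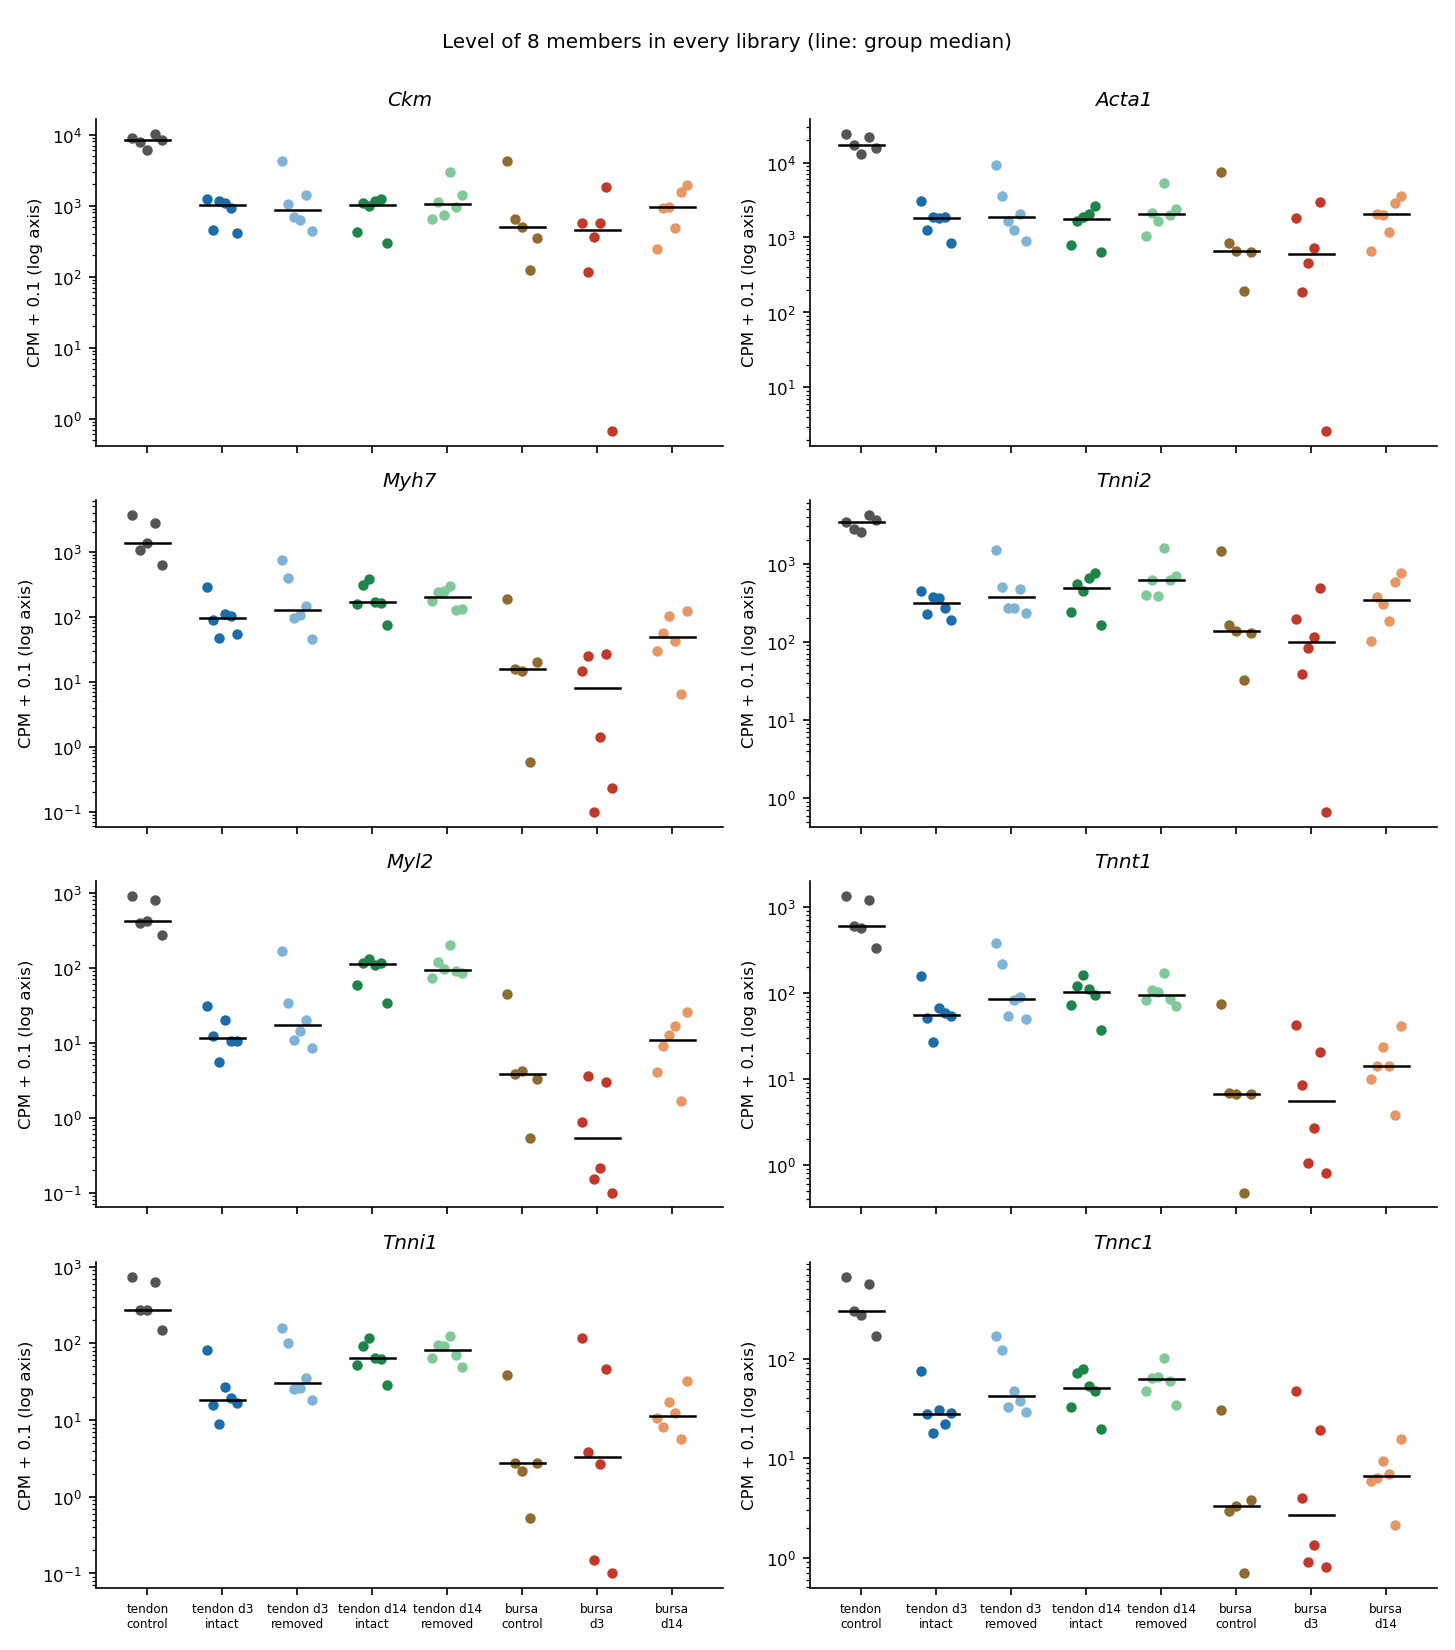
Level of 8 members (vertical axis, CPM plus 0.1, log scale) in each library of the 8 groups, 1 point per library in replicate order and a line at the group median. Ckm stood at 6014 to 10233 CPM in control tendon and at most at 4252 CPM in any injured tendon library, and the day 3 bursae spread widest.

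The first question was what tenotomy did to these genes in tendon whose bursa was kept. At day 3 after the cut, every measured member was lower than in control tendon, with falls between 3.87-fold for the thin filament ruler Neb and 40.3-fold for the slow light chain Myl3. Among the 31 members, 31 fell and none rose (edgeR quasi-likelihood, adjusted p under 0.05), against 65.5% of all 16469 features called in either direction, 34.4% lower and 31.1% higher. The median member changed by -3.30 on the log2 scale, beside -0.04 for all features. For all 31 the 6 injured libraries lay below the 5 controls with no overlap, a pattern seen for 21.6% of all features. In bulk tissue, fewer muscle fibres and less RNA per fibre cannot be told apart.

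Other measures moved with this fall, and their part in it was not tested. Satellite cell markers (5 of 5 measured, none at 0 in every library) summed to 91.8 to 157 CPM in control tendon and 17.4 to 32.5 CPM at day 3. Markers outside the muscle lineage fell too. Tendon cell markers (7 of 7) went from 3989 to 9412 CPM down to 1738 to 3696 CPM. Schwann cell markers (4 of 5) went from 455 to 703 CPM down to 202 to 270 CPM, and white adipocyte markers (3 of 5) from 233 to 576 CPM down to 58.2 to 228 CPM. Fibroblast markers (5 of 5) went the other way, from 9930 to 21197 CPM up to 50506 to 76283 CPM, as did macrophage markers (4 of 6), from 599 to 1806 CPM up to 3504 to 6360 CPM. Mitochondrial transcripts took 24.7 to 36.5% of counts in control tendon and 9.43 to 15.6% at day 3. Of 6 markers of cardiac muscle, the other striated tissue that shares Myh7, Myl2, Myl3 and Tnnc1, 2 were measured. The cardiac myosin heavy chain Myh6 was at 17.4 to 87.0 CPM in control tendon and 0.0523 to 14.9 CPM at day 3, and the cardiac myosin-binding protein Mybpc3 was at 0 in every control tendon library.

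Ckm, the muscle creatine kinase that rebuilds ATP from phosphocreatine, stood at 9027, 7966, 6014, 10233 and 8411 CPM in control tendon replicates 1 to 5. At day 3 with the bursa kept its lowest, median and highest values were 412, 1016 and 1228 CPM. The highest injured library was thus far below the lowest control, and Ckm fell by 3.29 ± 0.52 (SE) on the log2 scale, 9.78-fold, with an edgeR adjusted p of 4.1e-06. The other energy and oxygen genes fell alongside: the muscle enolase Eno3 was at -3.93 ± 0.56, the oxygen store myoglobin (Mb) at -3.83 ± 0.51 and the glycogen phosphorylase Pygm at -3.23 ± 0.52.

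In the thin filament, the skeletal actin Acta1 measured 24126, 17137, 13041, 21921 and 15638 CPM in control tendon and 844, 1824 and 3074 CPM (lowest, median, highest) at day 3. Every control library was above every injured library, and Acta1 fell by 3.41 ± 0.52 (adjusted p = 2.2e-06, 10.7-fold). The slow inhibitory troponin Tnni1 measured 744, 271, 276, 631 and 150 CPM in controls and 8.77, 18.1 and 81.1 CPM at day 3. Replicate 1 of the injured group carried the 81.1 CPM, and the fall was 3.93 ± 0.60 (adjusted p = 2.3e-06). Its fast counterpart Tnni2 measured 3401, 2763, 2575, 4240 and 3674 CPM in controls and 190, 317 and 451 CPM at day 3, a fall of 3.47 ± 0.47. As a ratio of the highest to the lowest control library, the fast gene varied less than the slow gene. The slow tropomyosin-binding troponin Tnnt1 measured 1339, 597, 562, 1202 and 328 CPM in controls and 26.5, 55.2 and 154 CPM at day 3, a fall of 3.62 ± 0.52. The slow calcium-binding troponin Tnnc1 fell by 3.61 ± 0.50 and the fast Tnnc2 by 3.30 ± 0.49. In the authors' deposited table, whose signs were turned here to read injured over control, the fast troponin Tnnt3 changed by -3.16.

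The largest falls of the 31 members were in the slow light chains Myl3 and Myl2 of the thick filament. The slow heavy chain Myh7 measured 3694, 1074, 1375, 2728 and 630 CPM in controls and 46.7, 94.4 and 281 CPM at day 3, and fell by 4.11 ± 0.64 (adjusted p = 3.2e-06, 17.3-fold). The slow regulatory light chain Myl2 measured 913, 397, 419, 806 and 273 CPM in controls and 5.39, 11.3 and 31.2 CPM at day 3. Even its highest injured library was below every control by a wide margin, and Myl2 fell by 5.28 ± 0.68 (adjusted p = 1.7e-07, 38.8-fold). The slow essential light chain Myl3 measured 1016, 468, 308, 822 and 234 CPM in controls and 7.69, 10.8 and 31.1 CPM at day 3, a fall of 5.33 ± 0.66 (adjusted p = 8.5e-08). Both fast light chains fell less in size: Mylpf by 3.14 ± 0.50 (8.79-fold) and Myl1 by 3.01 ± 0.48 (8.05-fold). In the authors' deposited table, the fast heavy chain Myh4 changed by -2.41. Myosin-binding protein C split the same way, with the slow form Mybpc1 at -3.23 ± 0.46 and the fast form Mybpc2 at -2.04 ± 0.46.

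Z-disc members, which anchor the thin filaments, all fell, from -4.44 ± 0.61 for the slow-fibre protein Myoz2 to -2.73 ± 0.46 for the actinin Actn2, with the fast-fibre Myoz1 at -3.66 ± 0.54 and the fast actinin Actn3 at -3.47 ± 0.55. The Z-disc protein Ldb3 changed by -4.77 in the authors' deposited table. The M-band proteins Myom2 and Myom1 fell by 3.67 ± 0.49 and 3.00. Calcium cycling members fell as well. The release channel Ryr1 fell by 2.01 ± 0.39, its voltage sensor Cacna1s by 3.17 ± 0.47, the fast calsequestrin Casq1 by 3.16 ± 0.49 and the calcium buffer parvalbumin (Pvalb) by 3.43 ± 0.58. The cardiac and slow-fibre calsequestrin Casq2 measured 77.0, 50.2, 41.1, 93.8 and 37.6 CPM in controls and 7.53, 9.47 and 22.1 CPM at day 3, and fell by 2.44 ± 0.37 (5.42-fold).

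Set side by side, the 4 slow contrast genes had a median log2 change of -4.02 (range -5.28 to -3.62). Their 4 slow-fibre partners Myl3, Tnnc1, Myoz2 and Casq2 had the same median of -4.02, and with the slow Mybpc1 added the median of these 5 was -3.61. The 8 measured of 9 fast-fibre partners (Myl1, Mylpf, Tnnc2, Actn3, Mybpc2, Myoz1, Casq1 and Pvalb) had a median of -3.23 (range -3.66 to -2.04), and the fast contrast gene Tnni2 was at -3.47. Whether slow and fast lists differed was not tested.

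**Figure D2:**
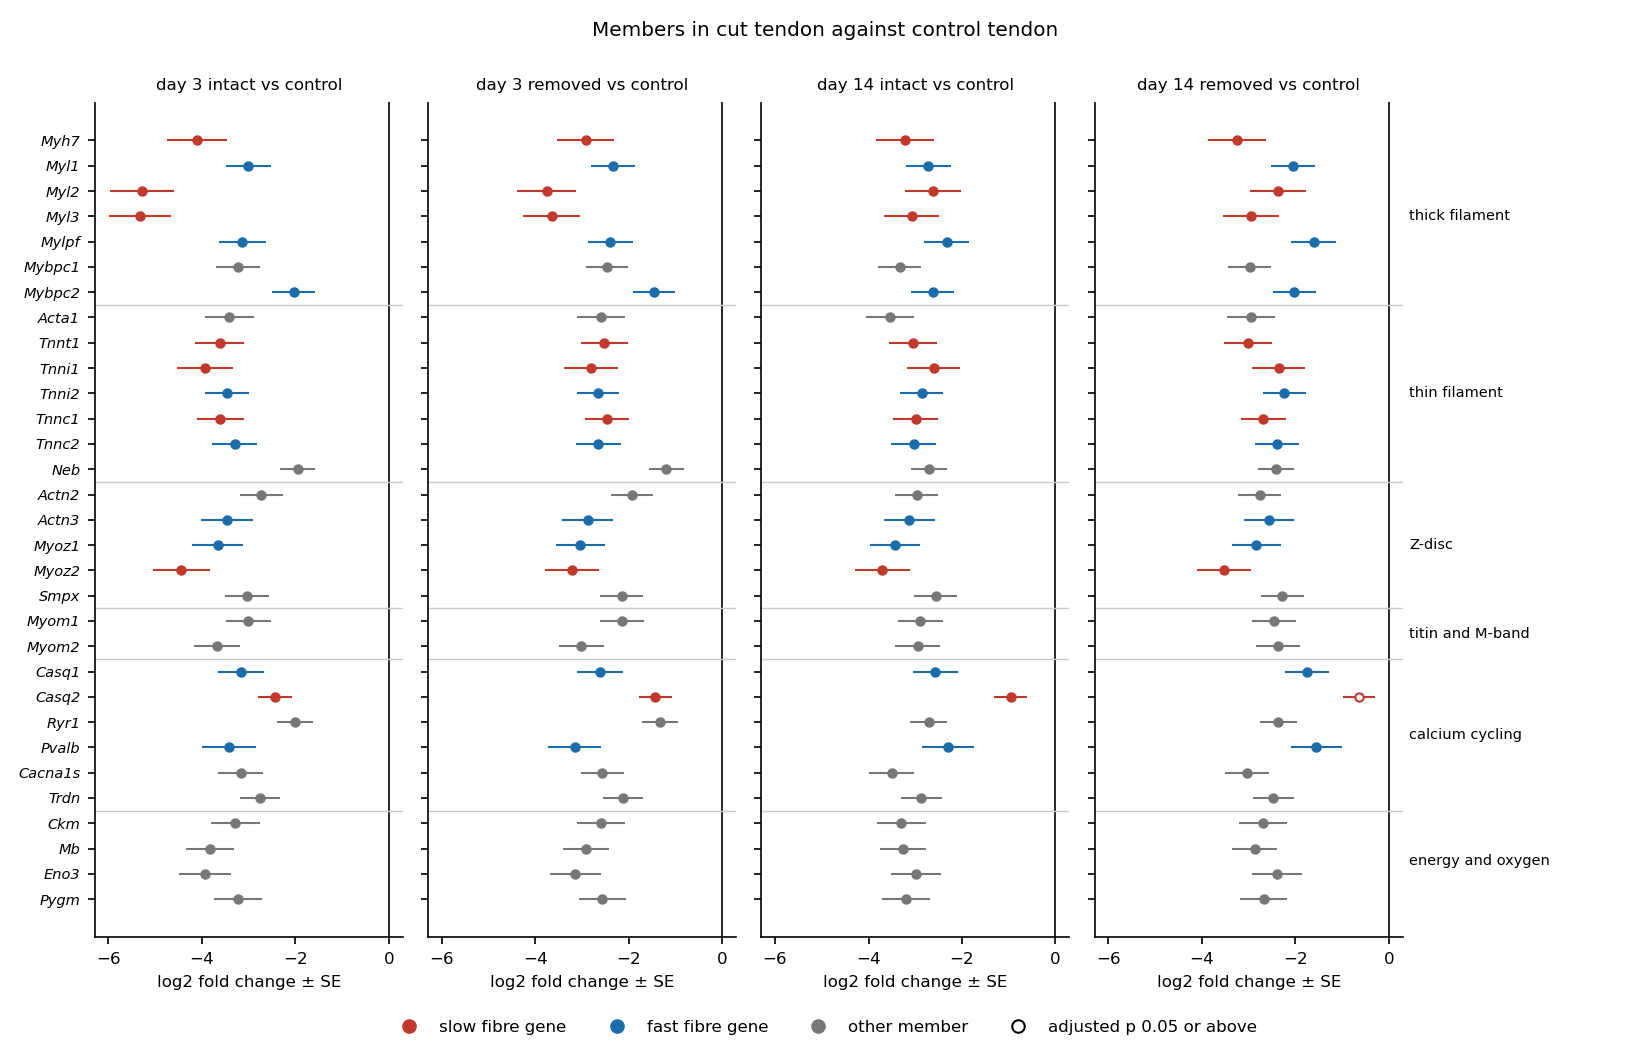
Log2 fold change against control tendon (horizontal axis, bars are standard errors) for the 31 members in the 4 injured tendon groups, with hollow points where the adjusted p was 0.05 or above and red and blue for slow-fibre and fast-fibre genes. All 31 points lie left of zero in each group, and Myl2 (-5.28) and Myl3 (-5.33) lie farthest left at day 3 with the bursa kept (intact).

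Removing the bursa at the time of tenotomy left the same picture against control tendon at day 3. Again 31 members fell and none rose, against 62.8% of all features called, 33.2% lower and 29.6% higher, with a median of -2.59 beside -0.05 for all features. Both day 3 comparisons share the 5 control libraries. Ckm measured 438, 870 and 4252 CPM (lowest, median, highest) and fell by 2.59 ± 0.51 (edgeR adjusted p = 8.2e-05). Acta1 measured 887, 1883 and 9222 CPM and fell by 2.59 ± 0.50. For both genes the highest value came from replicate 1, which lay below the lowest control but far above the other 5 libraries. Myl2 measured 8.42, 17.02 and 169 CPM and fell by 3.75 ± 0.64, and Myl3 measured 8.86, 22.0 and 154 CPM and fell by 3.65 ± 0.61. Without that library the members' median was -3.27 and all 31 stayed called, with Ckm at -3.35 ± 0.46, Acta1 at -3.33 ± 0.46, Myl2 at -5.06 ± 0.52 and Myl3 at -4.55 ± 0.57. Myh7 measured 45.6, 125 and 755 CPM, so that replicate 1 overlapped the lowest control of 630 CPM, and the gene fell by 2.92 ± 0.61 with it and by 3.64 ± 0.60 without it.

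Overlap of that kind was found for 11 members, Myh7, Tnnt1, Tnni1, Tnnc1, Actn2, Neb, Mybpc2, Casq2, Ryr1, Myom1 and Smpx (a small muscle protein), while the other 20 lay wholly below the controls, as did 16.7% of all features. Tnnt1 measured 49.6, 84.9 and 376 CPM and fell by 2.52 ± 0.50. Tnni1 measured 18.1, 30.8 and 158 CPM and fell by 2.81 ± 0.57. Tnni2 measured 233, 374 and 1486 CPM and fell by 2.65 ± 0.46. Without replicate 1 these falls were 3.09, 3.38 and 3.29. List medians over all libraries were -2.86 for the slow contrast genes, -2.84 for the slow partners (-2.47 with Mybpc1) and -2.63 for the fast partners, and in the authors' deposited table Myh4 and Tnnt3 changed by -1.94 and -2.44.

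By day 14 with the bursa kept, 31 members were still lower than control, against 66.1% of all features called and 33.0% called lower, with a median of -2.97 beside 0.01 for all features. For 30 the groups did not overlap, a pattern seen for 22.1% of features. Casq2 was the exception. Ckm measured 299, 1029 and 1247 CPM and remained 9.81-fold below control, at -3.29 ± 0.52 (edgeR adjusted p = 4.1e-06). Acta1 measured 635, 1773 and 2636 CPM and was at -3.54 ± 0.52. The lowest values of both genes came from replicate 6. The order of members was different from day 3: the largest falls were in Myoz2 (-3.70 ± 0.59), Acta1 and Cacna1s (-3.50 ± 0.48), while Myl2 measured 33.6, 111 and 129 CPM and was at -2.62 ± 0.61 (6.16-fold). Myh7 measured 74.6, 165 and 384 CPM and was at -3.21 ± 0.62. Tnni1, at 28.4, 63.5 and 117 CPM, fell by 2.61 ± 0.57, and Tnni2, at 164, 496 and 755 CPM, by 2.86 ± 0.46. Tnnt1 measured 36.9, 102 and 159 CPM and fell by 3.06 ± 0.51. Casq2 measured 18.9, 29.3 and 45.7 CPM and fell by 0.96 ± 0.35 (adjusted p = 0.019), to 1.94-fold below control. At this time the slow contrast median was -2.84 and the fast partner median -2.67, and the authors' deposited table gave -2.78 for Myh4 and -3.07 for Tnnt3.

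With the bursa removed, 30 members were lower than control at day 14, against 65.0% of features called, 32.5% lower and 32.6% higher, with a median of -2.46. Casq2, at -0.63 ± 0.35 (edgeR adjusted p = 0.11), did not pass. Groups did not overlap for 29, against 21.0% of features, and overlapped for Casq2 and Pvalb. Ckm measured 655, 1037 and 2937 CPM and fell by 2.69 ± 0.51. Acta1 measured 1062, 2081 and 5253 CPM and fell by 2.95 ± 0.51. The high values were those of replicate 4. Myh7 measured 128, 204 and 298 CPM and fell by 3.26 ± 0.62, and Myl2 measured 72.5, 93.6 and 201 CPM and fell by 2.37 ± 0.60. Tnnt1, Tnni1 and Tnni2 fell by 3.01 ± 0.51, 2.35 ± 0.56 and 2.23 ± 0.45. Among the smallest falls were the fast light chain Mylpf (-1.61 ± 0.48, adjusted p = 0.0045) and Pvalb (-1.55 ± 0.54, adjusted p = 0.015). The fast partner median was -2.04 and the slow contrast median -2.69. The authors' deposited table gave -2.29 for Myh4 and -2.54 for Tnnt3.

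The next question was whether tendons with and without the bursa differed at the same time. At day 3 every estimate was above zero with the bursa removed, and the estimates were largest for slow genes. The size of this shift rested on removed replicate 1, and the calls depended on both the pairing of replicate numbers and the test used. In the unpaired edgeR fit none of the 31 members passed, 9 had an unadjusted p under 0.05, and all 31 estimates were positive with a median of 0.76 on the log2 scale. Across all 16469 features that fit likewise called 0% (1287 at an unadjusted p under 0.05). Without removed replicate 1 the 31 unpaired edgeR estimates ran from -0.45 to 0.89 with a median of 0.10, and 24 of them moved by over 1.5 times. The values below are over all libraries. Unpaired DESeq2 called none of the members, with 9 at an unadjusted p under 0.05. Estimates were 1.69 ± 0.57 (SE) for Myl3, 1.52 ± 0.59 for Myl2, 1.22 ± 0.54 for Myoz2, 1.19 ± 0.57 for Myh7, 1.14 ± 0.45 for Tnnc1, 1.13 ± 0.54 for Tnni1, 1.10 ± 0.47 for Tnnt1 and 1.01 ± 0.35 for Casq2. Estimates for genes shared by all fibres or of the fast type were closer to zero, at 0.82 ± 0.47 for Acta1, 0.81 ± 0.42 for Tnni2, 0.70 ± 0.47 for Ckm and 0.28 ± 0.52 for Pvalb. The groups overlapped for all 31 members, while 0.0635% of features lay wholly higher and 0.185% wholly lower in the removed group.

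At day 3, 11 of the 31 members were higher with the bursa removed in 3 of 6 replicate numbers, 15 in 4, 4 in 5 and 1 in all 6. That 1 was Tnnc1, the most consistent member. With the bursa kept, replicates 1 to 6 measured 74.2, 27.5, 17.9, 30.2, 22.0 and 28.5 CPM. With it removed, they measured 169, 123, 32.5, 47.0, 37.2 and 29.2 CPM. The removed library was higher for every replicate number, although the groups overlapped. For Tnnt1 the kept libraries measured 154, 50.4, 26.5, 66.1, 57.4 and 52.9 CPM and the removed ones 376, 214, 54.2, 81.7, 88.1 and 49.6 CPM, higher in 5 of 6 numbers. Tnni1 measured 81.1, 15.5, 8.77, 26.9, 19.5 and 16.6 CPM with the bursa kept and 158, 101, 25.5, 25.9, 35.7 and 18.1 CPM without it, again higher in 5 of 6. Myl3 measured 31.1, 12.2, 8.96, 18.3, 7.69 and 9.40 CPM against 154, 58.4, 14.1, 19.1, 25.0 and 8.86 CPM, and Casq2 22.1, 10.2, 7.87, 12.2, 7.53 and 8.80 CPM against 31.4, 45.9, 22.5, 11.8, 15.5 and 10.02 CPM, each higher in 5 of 6. In all these slow genes replicates 1 and 2 of the removed group were the highest. Ckm was higher in 4 of 6 numbers, at 1228, 457, 1161, 1104, 929 and 412 CPM with the bursa kept and 4252, 1059, 682, 616, 1409 and 438 CPM without it. The fast Tnni2 measured 451, 225, 372, 366, 268 and 190 CPM against 1486, 511, 269, 271, 476 and 233 CPM, likewise higher in 4 of 6. Slow genes were not all more consistent: Myh7, Myl2 and Myoz2 were also higher in 4 of 6, and Mybpc1 in 3 of 6.

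**Figure D3:**
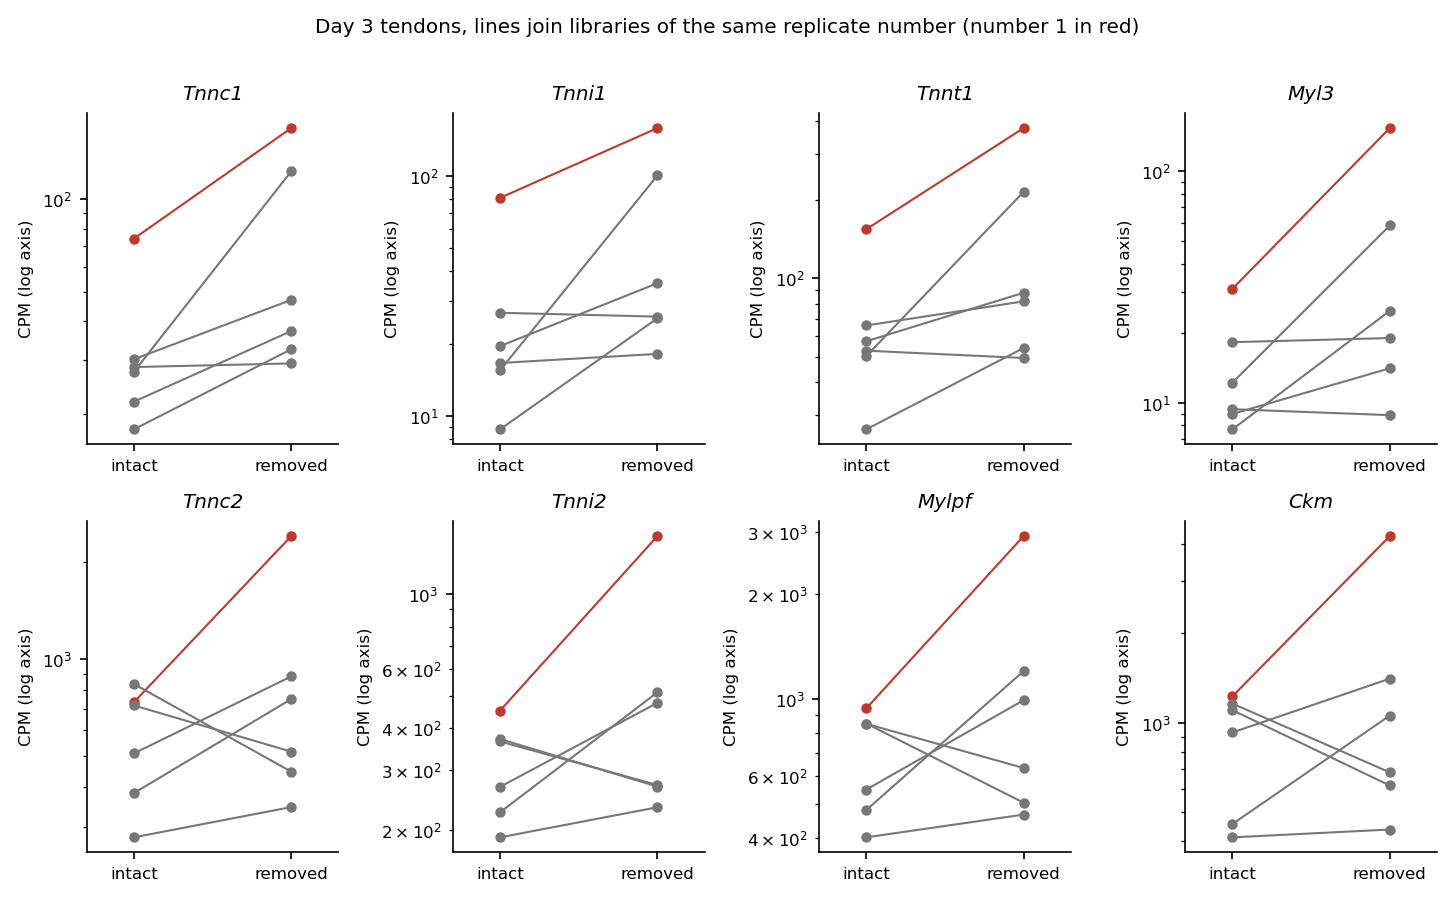
Levels of 8 members at day 3 (vertical axis, CPM, log scale) in bursa-kept (intact) and bursa-removed tendon, with a line joining libraries of the same replicate number and number 1 in red. For Tnnc1 every line rises from kept to removed, from 17.9 to 32.5 CPM in replicate 3 and from 74.2 to 169 CPM in replicate 1.

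When replicate number was used as a block in DESeq2, a fit added after the data had been seen, 4 slow members rose with bursa removal: Tnnc1 by 0.95 ± 0.23 (adjusted p = 0.0077), Tnnt1 by 0.88 ± 0.23 (0.024), Myl3 by 1.17 ± 0.32 (0.033) and Tnni1 by 1.02 ± 0.30 (0.049). Over all features that fit called 1.05%, with 0.414% higher. Casq2 (0.91 ± 0.28, adjusted p = 0.076), Myl2 (0.85, 0.209) and Myh7 (0.81, 0.302) did not pass, nor did Tnni2 (0.53, 0.545), Acta1 (0.45) or Ckm (0.36). Fast and pan-fibre members were therefore not shown to differ. The edgeR fit of all groups with the same block called none of the members, with 8 at an unadjusted p under 0.05. In edgeR with that block on just these groups, likewise added later, all 31 members were fitted and calls were followed for 10. None of those 10 was called, Tnnc1, Tnnt1, Myl3 and Tnni1 included. The authors' deposited table for this comparison called 2 members higher, Tnnc1 at 0.95 (adjusted p = 0.000712) and Casq2 at 0.91 (0.0201), and 82 genes in all, and its fold changes differed from the number-blocked DESeq2 values by a median of 0.00239 over the 31 members, against 0.322 for DESeq2 without the block. The deposited values for Myh4 and Tnnt3 were 0.23 and 0.40, with adjusted p of 0.92 and 0.723.

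Leaving out each replicate number in turn from the blocked fit gave between 1 and 5 called members, and Tnnc1 was called each time (adjusted p from 0.000134 to 0.0371). Replicate 1 of the removed group had 25.4% mitochondrial counts against 11.7 to 15.5% in the others. Without it the unpaired estimates were 0.69 for Tnnc1, 0.89 for Casq2, 0.78 for Myl3, 0.53 for Tnnt1, 0.56 for Tnni1, 0.22 for Myl2 and 0.47 for Myh7, and the estimate for Ckm turned to -0.06. Other libraries moved 2 of these genes more: Tnni1 was at 1.80 without kept replicate 1, and Casq2 was at 0.67 without removed replicate 2. The part of that library's mitochondrial share in the result was not tested.

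At day 14, removed and kept tendon were not shown to differ in any member. None of the 31 members passed in edgeR and none had an unadjusted p under 0.05, against 0% of all features called and 210 at an unadjusted p under 0.05. DESeq2 without pairs called none of the members either, and with the number block it called none, with 4 at an unadjusted p under 0.05, against 0.0450% of features. The median estimate was 0.43, from -0.04 ± 0.56 for Myh7 to 0.83 ± 0.45 for Casq1, and the groups overlapped for all 31 (0.0462% of features lay wholly higher and 0.0347% wholly lower). Here the slow contrast median was 0.15 and the fast partner median 0.65, the reverse order of day 3, where they were 1.16 and 0.61. Single libraries weighed on both days. The median over all 31 members was 0.12 at day 14 without removed replicate 4, and 0.10 at day 3 without removed replicate 1. Tested directly, the change in the removal difference from day 3 to day 14 passed for none of the members in edgeR, and none had an unadjusted p under 0.05, against 0% of features called. Estimates of that change were -1.55 ± 0.78 for Myl3 and -1.27 ± 0.81 for Myl2.

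Between day 3 and day 14, slow light chain RNA rose in tendon with its bursa kept. Myl2 rose by 2.65 ± 0.60 (edgeR adjusted p = 0.00079, 6.3-fold), from 5.39 to 31.2 CPM across the day 3 libraries to 33.6 to 129 CPM at day 14. It was the only one of the 31 members whose groups did not overlap, a pattern found upward for 12.1% of features. Myl3, at 22.9, 71.1 and 116 CPM on day 14, rose by 2.25 ± 0.58 (adjusted p = 0.0024, 4.76-fold), Casq2 by 1.48 ± 0.35 (0.0011, 2.79-fold) and Tnni1 by 1.33 ± 0.54 (0.049). These 4 were the members called in edgeR, against 42.8% of all features called, 22.3% higher and 20.5% lower. The authors' deposited table for this comparison called 7 of 34 members, these 4 and Ldb3, the fast-fibre Pvalb at 1.14 (adjusted p = 0.0373) and, lower, Neb at -0.79 (0.00284). Of all 23748 genes, that table called 7280 in either direction. Tnni1 lost its call under 13 of 18 alternative settings, over which its adjusted p ran from 0.00314 to 0.117. Not every slow gene moved: Myh7 was at 0.90 ± 0.56 (0.21), Tnnt1 at 0.56 and Tnnc1 at 0.62, and none of these passed. Ckm (-0.01 ± 0.47), Acta1 (-0.13) and Tnni2 (0.60 ± 0.42, 0.27) did not pass either. The authors' deposited table gave -0.34 for Myh4, 0.12 for Tnnt3 and, for Ldb3, 1.71 (adjusted p = 0.000512).

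In bursa-removed tendon, Pvalb rose by 1.60 ± 0.53 (edgeR adjusted p = 0.015), while Neb fell by 1.22 ± 0.36 (0.0073) and Ryr1 by 1.02 ± 0.37 (0.025), against 45.1% of features called, 23.3% higher and 21.8% lower. Groups overlapped for all 31 members, whereas 12.9% of features lay wholly higher and 10.5% wholly lower at day 14. Myl2, at 1.39 ± 0.57 (0.050), and Casq2, at 0.80 ± 0.34 (0.057), missed the threshold. This comparison rested on replicate 1 of the day 3 group. Without that library 9 members rose and none fell, with Myl2 at 2.69 ± 0.46 (adjusted p = 3e-05), Pvalb at 2.33 ± 0.50 (0.000444), Myl3 at 1.60 ± 0.49 (0.0101) and Tnni2 at 1.05 ± 0.37 (0.0233). With replicate number as a block, 5 were called, with Myl2 (2.00 ± 0.52, 0.003) and Casq2 (0.90 ± 0.33, 0.0293) added on the higher side. Deviations from group means of same-numbered removed tendons of the 2 days correlated at only -0.257 to 0.199. Number was therefore not shown to pair libraries across days, and no conclusion is drawn from that block. The differences between the 2 days in kept and removed tendon were not shown to differ from each other, as the direct test above passed for none of the members.

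Counts of a slow gene over those of its fast counterpart in the same library do not depend on how the library is scaled. These ratios were chosen after the data had been seen, are not corrected for gene length and are given without a test. The log2 ratio of Myl2 to Mylpf was -3.48 ± 0.83 (SD, n = 5) in control tendon and -5.64 ± 0.85 (n = 6) at day 3 with the bursa kept. Ranges of -4.74 to -2.48 and -7.29 to -4.91 did not overlap. At day 14 it was -3.54 ± 0.51, inside the control range, and with the bursa removed it was -5.29 ± 0.61 at day 3 and -3.96 ± 0.59 at day 14. Myl3 over Myl1 followed a like course, at -3.36 ± 1.08 in control, -5.63 ± 0.56 at day 3 and -3.50 ± 0.57 at day 14 with the bursa kept. Its control range of -4.897 to -2.06 and day 3 range of -6.35 to -4.891 met at the edge. Troponin pairs overlapped between these groups as well: Tnni1 over Tnni2 was -3.23 ± 0.90 in control, -3.80 ± 0.94 at day 3 and -2.70 ± 0.64 at day 14, and Tnnc1 over Tnnc2 was -3.96 ± 0.80, -4.17 ± 0.88 and -3.69 ± 0.55. Casq2 over Casq1 was higher after injury, from -4.49 ± 0.70 in control to -3.73 ± 0.65 at day 3 and -2.70 ± 0.59 at day 14, with day 14 values of -3.54 to -2.12 all above the control range of -5.55 to -3.81. Mybpc1 over Mybpc2 was 1.68 ± 0.66 in control, 0.51 ± 0.50 at day 3 and 1.01 ± 0.23 at day 14.

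**Figure D4:**
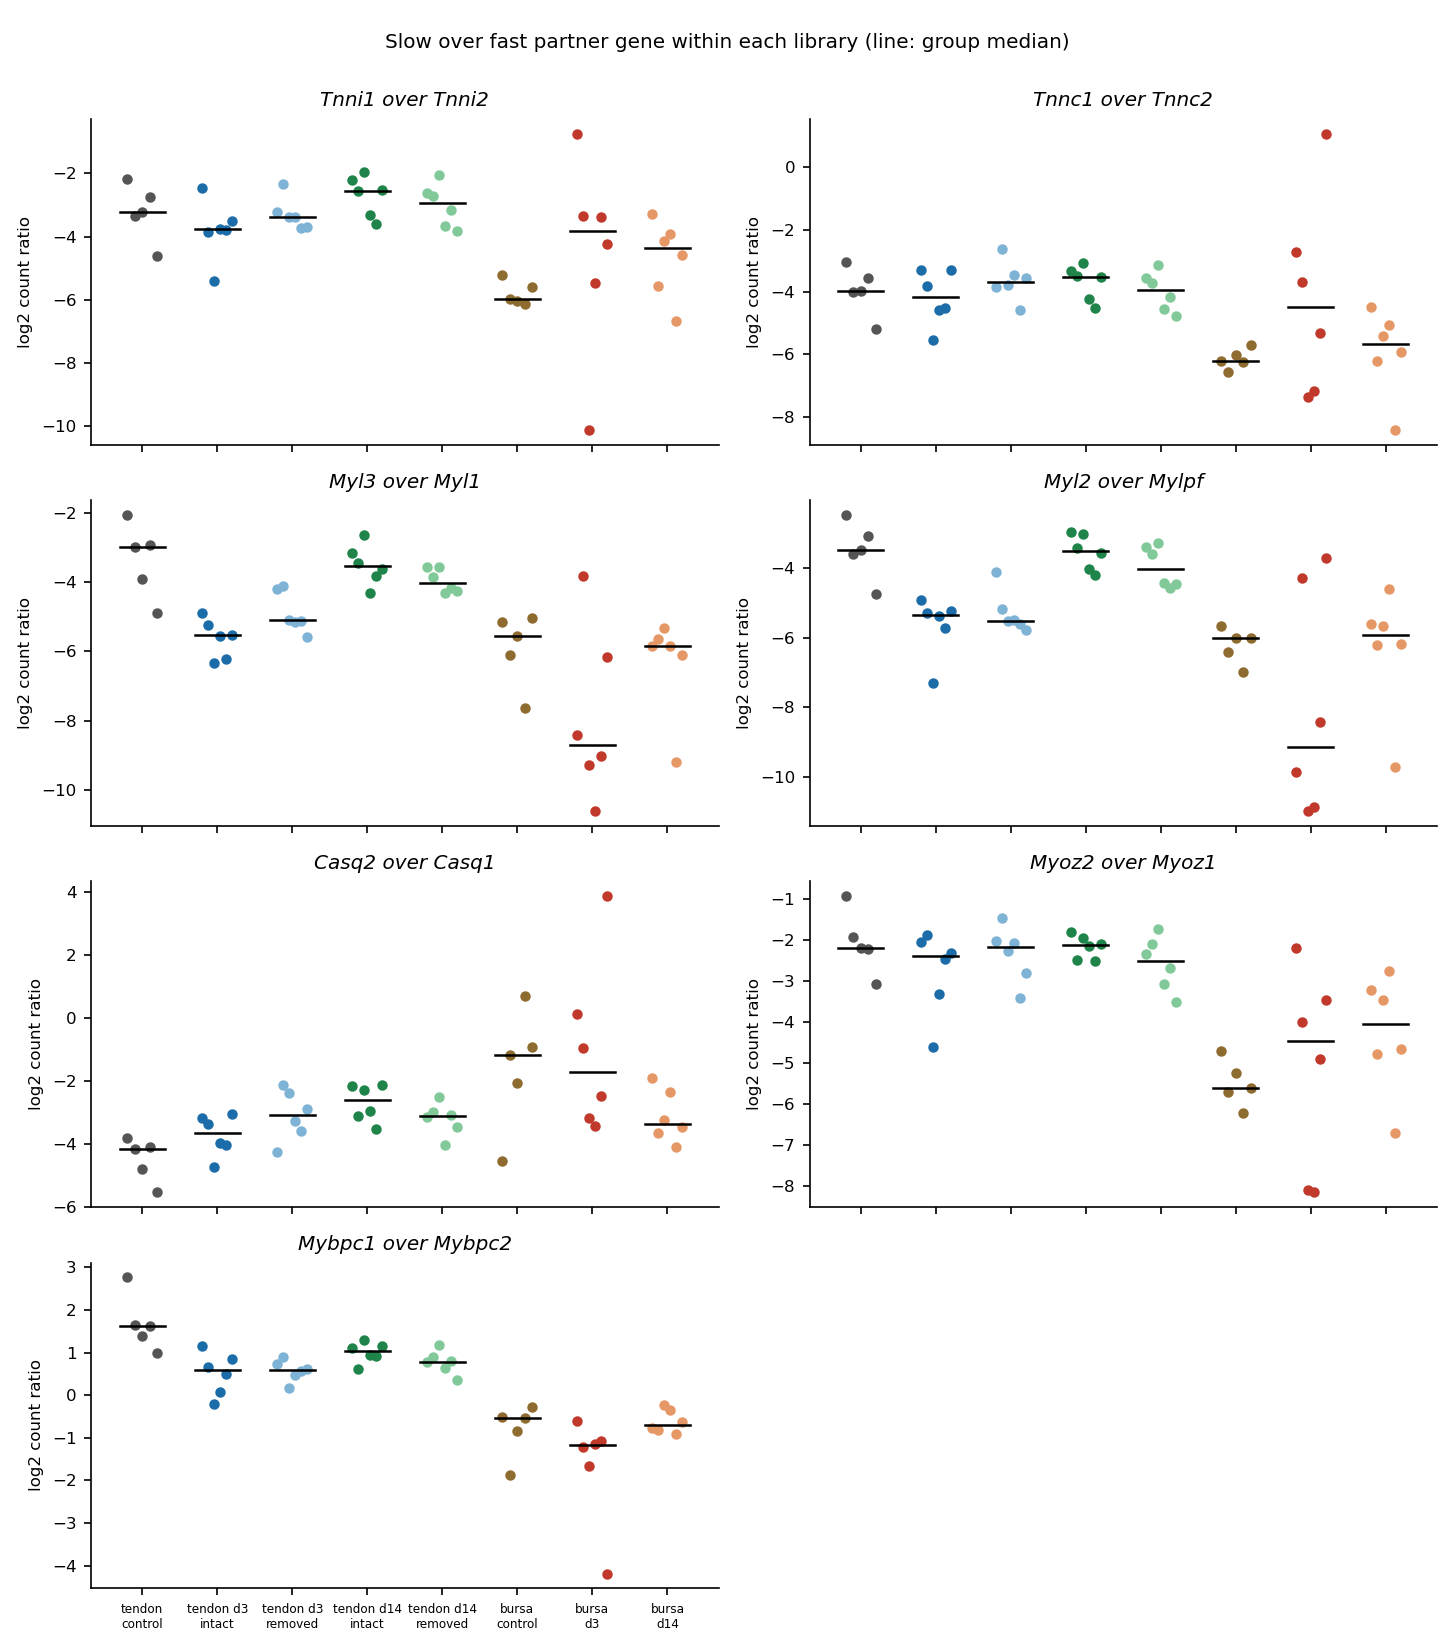
Log2 ratio of the counts of a slow-fibre gene to those of its fast-fibre counterpart in the same library (vertical axis), by group, 1 point per library and a line at the group median. Myl2 over Mylpf averaged -3.48 in control tendon, -5.64 at day 3 and -3.54 at day 14 with the bursa kept (intact), whereas Tnni1 over Tnni2 overlapped between these groups.

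Muscle genes were also measured in the bursa, a tissue with no muscle fibres of its own. In non-operated rats, 29 of the 31 members were lower in bursa than in tendon (edgeR, adjusted p under 0.05), against 51.2% of features called and 22.0% called lower, with a median of -3.22. The exceptions were Actn3 (-2.01 ± 0.88, adjusted p = 0.053) and Mybpc2 (-1.68 ± 0.76, 0.06), and for the other 29 the groups did not overlap, as for 12.3% of features. Slow genes differed most, with Myoz2 65.5-fold lower (-6.03 ± 1.00), Myl2 51.2-fold lower (-5.68 ± 0.97), Tnni1 at -5.53 ± 1.15, Tnnt1 at -5.45 ± 0.96 and Myh7 at -5.32 ± 1.12, whereas Ckm was 7.07-fold lower (-2.82 ± 0.88, 0.007) and Tnni2 was at -3.12 ± 0.84. Casq2 had the smallest difference, at -1.44 ± 0.49 (0.013). Replicate 1 of control bursa held these differences down: without it 31 members were called lower, with a median of -4.88, Ckm at -4.37 ± 0.95 (20.7-fold), Tnni2 at -4.84 ± 0.89 (28.7-fold), Myl2 at -7.63 ± 1.03 and Myoz2 at -8.11 ± 1.09, and Casq2 at -1.43 ± 0.53.

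Control bursa replicate 1 held far more muscle RNA than the rest. Ckm measured 4280, 646, 497, 122 and 350 CPM in replicates 1 to 5 and Acta1 7512, 843, 660, 196 and 639 CPM. Myh7 measured 189, 15.4, 14.5, 0.484 and 19.8 CPM, Myl2 44.8, 3.69, 4.14, 0.430 and 3.17 CPM, Tnnt1 72.9, 6.79, 6.59, 0.376 and 6.50 CPM, Tnni1 38.6, 2.62, 2.10, 0.430 and 2.62 CPM and Tnni2 1445, 167, 138, 32.3 and 129 CPM. Replicate 1 was the highest and replicate 4 the lowest for each of these genes. Casq2 did not share this order, at 20.7, 23.0, 14.1, 25.8 and 26.5 CPM. Mitochondrial transcripts took 48.9 and 53.5% of counts in replicates 1 and 2 and 13.3 to 16.98% in the others, and their part in the bursa results was not tested. Within these libraries the slow troponin I and C were also low relative to their fast forms: Tnni1 over Tnni2 was -5.79 ± 0.38 on the log2 scale and Tnnc1 over Tnnc2 -6.14 ± 0.32 (SD, n = 5).

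After tenotomy, the bursa showed 2 lower members at day 3, the slow light chains Myl3 (-3.08 ± 1.05, edgeR adjusted p = 0.025) and Myl2 (-3.16 ± 1.14, 0.034), against 46.1% of features called, 24.1% lower and 22.0% higher. Myl2 measured 0.772, 3.49, 0.0505, 0.113, 2.91 and 0 CPM in replicates 1 to 6, and Myl3 measured 1.18, 4.88, 0.252, 0.170, 1.89 and 0.127 CPM. Both overlapped the controls, as did all 31 members, whereas 10.9% of features lay wholly below and 13.2% wholly above. The call rested on control bursa replicate 1: without it Myl2 was at -1.17 (adjusted p = 0.36) and Myl3 at -1.34 (0.25). It was also lost with library totals as the only scaling, with replicate number as a block, and when just these groups were fitted. Controls came from non-operated rats, so number does not pair a control bursa with a day 3 bursa. Other members did not pass, with Myh7 at -2.05 ± 1.24 (0.19), Ckm at -1.01 ± 1.09 and Tnni1 at 1.68 ± 1.38 (0.34). The direction of the members as a whole also rested on control bursa replicate 1. Their median was -0.76 with it and 0.84 without it, and 30 of the 31 moved by over 1.5 times.

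Day 3 bursae differed widely from each other. Ckm measured 565, 115, 356, 562, 1824 and 0.572 CPM in replicates 1 to 6. Tnni1 measured 116, 3.73, 0.0505, 2.60, 46.5 and 0 CPM, Tnnc1 46.7, 3.85, 0.808, 1.24, 19.1 and 0.700 CPM, and Casq2 110, 10.8, 6.87, 9.90, 37.6 and 15.3 CPM. Replicates 1 and 5 were the highest for Tnni1, Tnnc1 and Casq2, and replicates 2 and 5 the highest for Myl2. Tnni1 over Tnni2 accordingly ranged from -10.12 to -0.75 on the log2 scale among the day 3 bursae. Without control replicate 1, Tnni1 was called higher at day 3 (3.92 ± 1.52, edgeR adjusted p = 0.0492).

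By day 14 no member differed from control bursa in edgeR, none had an unadjusted p under 0.05, and DESeq2 called none either, against 16.3% of features called. Estimates ran from -0.68 to 0.88 with a median of -0.01. That median rested on control bursa replicate 1 and on the scaling. Without that library the estimates ran from 0.13 to 2.91 with a median of 1.67, and Ckm was at 1.34 ± 1.09 (edgeR adjusted p = 0.44), Acta1 at 1.83 ± 1.06 (0.28), Myh7 at 2.26 ± 1.23 (0.25) and Myl2 at 2.02 ± 1.01 (0.21), still with no call. With library totals as the only scaling the members' median was 0.62, while the median of all features moved by 0.194. Ckm measured 244, 946 and 1923 CPM (lowest, median, highest), Acta1 652, 2030 and 3616 CPM, Myh7 6.44, 48.6 and 122 CPM and Myl2 1.54, 10.7 and 25.4 CPM. The groups overlapped for all 31, against 6.28% of features wholly above and 3.75% wholly below. Between day 3 and day 14 edgeR called none of the members, with 2 at an unadjusted p under 0.05, against 21.7% of features called, 9.49% higher and 12.2% lower. Myl2 (3.19 ± 1.12, adjusted p = 0.051) and Myl3 (2.77 ± 1.01, 0.062) were nearest, and again the groups overlapped for all 31, against 6.60% of features wholly higher and 7.09% wholly lower at day 14. DESeq2 called both higher (3.18 ± 1.04, 0.0138, and 2.76 ± 0.92, 0.0157). The authors' deposited tables called 2 of 34 members lower at day 3, none at day 14 and 3 higher from day 3 to day 14. Among the last was Ldb3 at 1.59 (adjusted p = 0.0235). Of all 23748 genes, those tables called 7236, 3006 and 5602 in either direction.

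**Figure D5:**
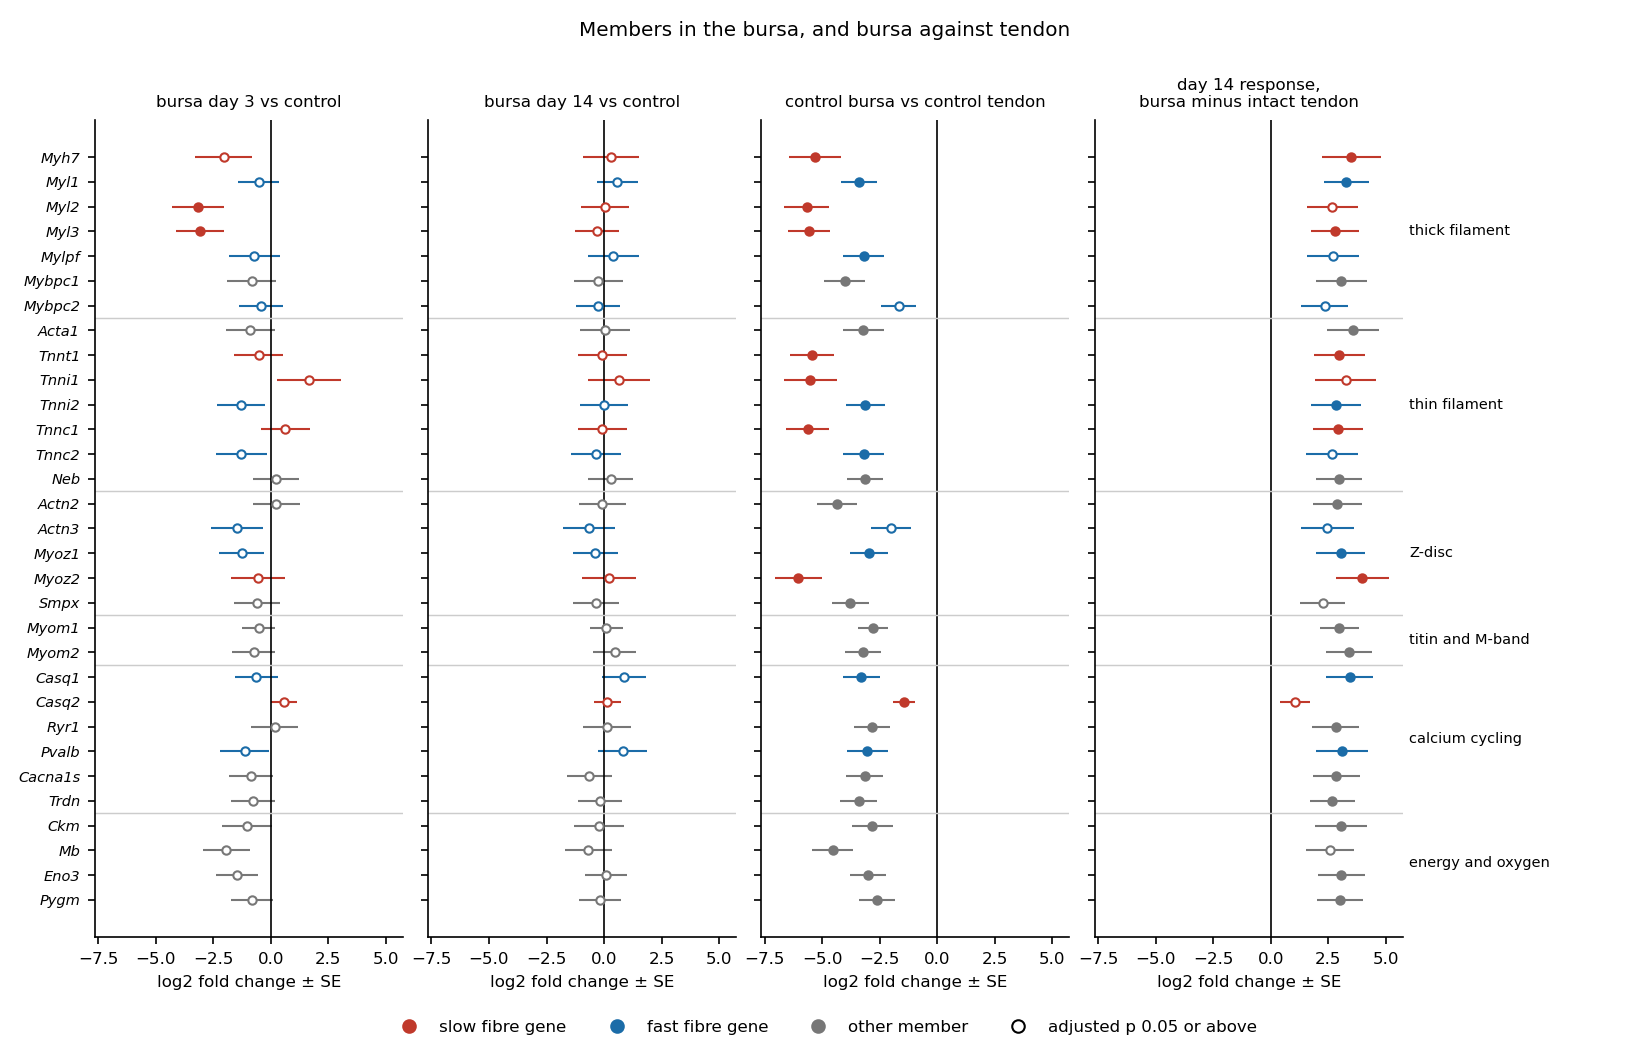
Log2 fold change of the 31 members (horizontal axis, bars are standard errors, hollow points where the adjusted p was 0.05 or above) in the bursa at days 3 and 14 against control bursa, in control bursa against control tendon, and as the difference of the day 14 responses of bursa and bursa-kept tendon. All 31 lie below zero for control bursa against control tendon, and day 14 bursa lies between -0.68 and 0.88 of control bursa.

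Did the bursa and the bursa-kept tendon respond differently? At day 3 the response was higher in bursa than in tendon for 8 members (edgeR interaction, 20 at an unadjusted p under 0.05), against 24.0% of features called and 9.77% called higher. This count rested on how libraries were fitted. Same-numbered day 3 bursae and bursa-kept tendons deviated together, and with number as a block between these day 3 groups, in a fit of just the 4 groups compared, 1 member was called, Casq2 (2.40 ± 0.54, edgeR adjusted p = 0.00903), against 3 in that fit without the block. The 8 members were Tnni1 (5.54 ± 1.38), Tnnc1 (4.19 ± 1.09), Myoz2 (3.89 ± 1.17), Tnnt1 (3.01 ± 1.11), Casq2 (2.92 ± 0.67), Actn2 (2.90), Myom2 (2.85) and Myom1 (2.40), whereas Ckm, Acta1, Myh7 and Tnni2 did not pass. The count ran from 3 without day 3 bursa replicate 1 to 31 without control bursa replicate 1, and was 20 without day 3 bursa replicate 6. It fell to 4 without control bursa replicate 2, 3, 4 or 5, without day 3 bursa replicate 5, without control tendon replicate 4 or without day 3 bursa-kept tendon replicate 2 or 6, and to 5 without control tendon replicate 1. At day 14, 22 members differed, all higher in bursa, against 34.6% of features called and 15.4% called higher, among them Myoz2 (3.98), Acta1 (3.58 ± 1.14), Myh7 (3.51), Ckm (3.05), Tnnt1 (2.99) and Tnni2 (2.85). Without control bursa replicate 1 the count was 30, with Ckm at 4.60 ± 1.13. It was 10 without control bursa replicate 3, 11 without replicate 5, 13 without replicate 4 and 14 without control bursa replicate 2, day 14 bursa replicate 6 or day 14 bursa-kept tendon replicate 6. Bursa and tendon responses each use their own controls, so this difference also carries the spread among the 5 control bursae.

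Another 46 muscle fibre genes, outside the 39 members, were listed for structure, excitation, metabolism and turnover, of which 38 were tested in tendon. At day 3 with the bursa kept, 36 fell and none rose, against 34.4% of all features called lower and 31.1% higher. Their median was -2.60 on the log2 scale beside -3.30 for the members. Among them the triad protein Jph2 fell by 2.61 ± 0.21 (edgeR adjusted p = 2.5e-11), the thin filament nucleator Lmod3 by 3.38 ± 0.43 and the calcium pump inhibitor Pln by 3.06 ± 0.40. The ubiquitin ligase Fbxo32, linked to muscle atrophy, was at -0.51 ± 0.25 (0.08) and the pump regulator Sln at 1.04 ± 0.54 (0.096), and neither passed. At day 14 with the bursa kept, 36 fell, against 33.0% of features called lower. The intermediate filament desmin (Des) was at -3.15 and the sarcoglycan Sgca at -2.99. Jph2 rose by 1.09 and Des fell by 1.85 between the 2 days in kept tendon. Between removed and kept tendon at day 3, none of the 38 passed in edgeR, against 0% of features. An unadjusted p under 0.05 was found for 8, and the median was 0.68.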

How the data were processed

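Poly-A RNA from 46 rat tendon and bursa libraries in 8 groups was sequenced by the authors with Illumina TruSeq chemistry. Per the submitters' processing notes, bcl2fastq 2.19 and kallisto 0.44.0 were used, and DESeq2 without a version. For genome build and annotation, the sources used here gave none. The count table holds kallisto estimated counts per transcript, as deposited by the authors. The 11 deposited comparison tables give, per the file headers, DESeq2's mean of normalized counts (a signal averaged over the libraries compared), the log2 fold change with its error, the test statistic (a score) and the p-value with its adjusted p-value. Compared with group means of counts, the deposited fold changes read second named over first, and their signs were set to injured over control, removed over kept and later over earlier.

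Transcripts carry no symbols, so each symbol was matched to the transcript, or sum of up to 3 transcripts, whose normalized means come within a tolerance of the deposited means in all tables: 0.05%, 1% or 5% under the general rules and 2% under a wider rule for listed genes. For members the largest difference was 1.83% (Tnni1). This placed 14193 of 23747 symbols and 16382 of 31715 transcripts, 90.6% of all counts (88.6 to 95.5% per library). No decoy of 11626 matched under the single-transcript rules of 0.05% and 1%; the 5% rule and the pair rules, which placed Cacna1s, had no decoy test. Under the wider rule, used for Myl1, Tnnt1, Tnni1, Tnni2, Neb, Mybpc1, Myoz1 and Trdn, 5 of 170 decoys matched (2.94%). Other isoforms may be missing from a level. Unmatched transcripts stayed in the fit as features of their own. Estimated counts were summed per symbol and rounded, filtered with filterByExpr, scaled by TMM and tested with edgeR 4.0.16 (quasi-likelihood, robust) in R 4.3.3, with Benjamini-Hochberg adjustment over all 16469 (tendon), 16406 (bursa) or 17315 (both) features and a threshold of 0.05. The tendon comparisons shared a fit of the 5 tendon groups and the bursa comparisons a fit of the 3 bursa groups. DESeq2 1.42.0 was the alternative, beside other scalings, no filter, a replicate block and leaving out libraries. The fit was tested on simulated data. Figures used Python 3.11.15, pandas 2.3.3, numpy 2.4.6 and matplotlib 3.10.9.

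The members and gene lists were chosen with earlier results of these data known. Every member could be named, and values in every library were given for the slow and fast contrast genes, Ckm, Acta1 and members called between removed and kept tendon or in the bursa. From the other lists, the 3 genes with the smallest and the 2 with the largest adjusted p per comparison could be named. Deviations from group means of same-numbered removed and kept tendons correlated at 0.140 to 0.386 at day 14 and 0.0546 to 0.466 at day 3, where number 3 was lowest. Those of same-numbered day 3 bursae and bursa-kept tendons correlated at 0.128 to 0.224, and at day 14 at 0.0355 to 0.203. The share of slow myosin heavy chain could not be computed because Myh1, Myh2 and Myh4 had no counts here.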

Additional observations from a re-analysis of the deposited data

Results flagged for a closer look

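In groups of 5 or 6 libraries, a highest or lowest library set apart by a wide gap was looked for in 64 sets of values, and 22 were found. The rule flags about 1 in 20 groups by chance for normally distributed values, whereas these were untransformed CPM and percentages, so that rate may not hold here. All 22 flags were on a highest library. These values are also not independent, because the same few libraries recur. Replicate 1 of control bursa was high for the share of counts in muscle genes (1.955%, next 0.4124%), Ckm (4280 CPM, next 645.9), Acta1 (7512 CPM, next 843.4), Myh7 (189 CPM, next 19.75), Myl2 (44.79 CPM), Tnnt1 (72.89 CPM), Tnni1 (38.64 CPM) and Tnni2 (1445 CPM). Replicate 1 of day 3 bursa-removed tendon was high for the muscle share (4.161%, next 1.69%), Ckm (4252 CPM), Acta1 (9222 CPM), Myl2 (168.7 CPM) and Tnni2 (1486 CPM). Replicate 4 of day 14 bursa-removed tendon was high for the muscle share (3.031%, next 1.472%), Ckm (2937 CPM), Acta1 (5253 CPM), Myl2 (201.2 CPM) and Tnni2 (1593 CPM). Replicate 1 of day 3 bursa-kept tendon was high for the slow genes Myh7 (281.3 CPM, next 111.4), Tnnt1 (154.2 CPM) and Tnni1 (81.07 CPM). Replicate 5 of day 3 bursa was high for Ckm (1824 CPM, next 564.5).

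The response to tenotomy differed between bursa and bursa-kept tendon by edgeR's interaction test for 8 members at day 3, among them Tnnt1 (log2 difference 3.012) and Tnni1 (5.542). At day 14 it differed for 22 members, among them Ckm (3.053), Acta1 (3.577), Myh7 (3.511), Tnnt1 (2.985) and Tnni2 (2.846). All these differences were in the direction of a smaller fall, or a rise, in the bursa.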

How the results depend on the processing

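All falls against control tendon kept their direction under every alternative run, and the counts of members called there ran from 30 to 31 of 31, or 22 to 23 of the 23 members matched to 1 transcript. Library totals as the only scaling moved the median of all features by 0.535 on the log2 scale in tendon at day 3 with the bursa kept, 0.503 with it removed, 0.348 and 0.31 at day 14, 0.255 for control bursa against control tendon and 0.168 and 0.194 in the bursa at days 3 and 14. Under it the members' median was -2.74 at day 3 with the bursa kept, Casq2 at day 14 was at -0.59 and no longer passed, and 13 members differed in the day 3 response. With replicate number as a block, members called were 5 for bursa-removed tendon from day 3 to day 14, 0 for bursa at day 3 and 4 for removed against kept tendon at day 3 in DESeq2. Blocked edgeR of all tendon groups called none in that last comparison. Number was not shown to pair libraries across days, and controls came from non-operated rats. The bursa day 3 count was also 0 with library totals, with just the groups compared and without control bursae 1 and 2. From day 3 to day 14 the bursa gave 2 members with DESeq2 and 2 with just the groups compared. Without control bursae 1 and 2, the day 3 response differed for 31, and with just the 4 groups compared for 3 without and 1 with number as a replicate block at day 3. The muscle share of control tendon was 9.457% without mitochondrial transcripts.

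Leaving out 1 library at a time gave 10 to 30 members for the day 14 response, 3 to 31 for the day 3 response, 2 to 9 for removed tendon from day 3 to day 14, 0 to 2 for bursa at day 3 and 0 to 2 for bursa from day 3 to day 14. For removed against kept tendon at day 3 it gave 0 in the unpaired fit and, number by number in the blocked DESeq2 fit, 1 without 1, 2, 3 or 5 and 5 without 4 or 6. Ckm in that comparison ran from -0.0633 to 0.861, and turned negative without removed replicate 1. Single-gene values were followed only for members called in the main fit and for some uncalled members named above. Of 2597 such values with a library left out, 2434 kept direction and side of the threshold, 149 lost the call, 13 gained it and 1 reversed. Of 1361 under other settings, 1328 kept both, 29 lost it, 4 gained it and none reversed. Changes of direction among the other uncalled members are outside these counts. Without control bursa replicate 1, the members' median in bursa at day 3 went from -0.76 to 0.84. The fits with control bursae left out, the blocked DESeq2 fits, the fits of just those 4 groups and the share without mitochondrial transcripts were chosen after seeing the data.

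No replicate number is tied to a rat by the labels. A slow share of myosin heavy chain was not run. Low levels limit the bursa, where the lowest day 3 library had 0 CPM of Myl2.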

Other observations

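Genes of embryonic and denervated muscle (16 listed, 13 tested in tendon and 11 in bursa) moved in both directions in tendon at day 3, as did features in general. With the bursa kept, 5 of 13 rose and 5 fell against control tendon in edgeR, near the shares of all features, 31.1% higher and 34.4% lower. The acetylcholine receptor subunit Chrna1 rose by 1.85 ± 0.36 (SE) on the log2 scale, while the myogenic regulator Myod1 fell by 2.59 ± 0.45 and the receptor subunit Chrnb1 by 1.498 ± 0.32. With the bursa removed, 5 rose and 2 fell (29.6% and 33.2% of features), with Chrna1 at 2.78 ± 0.37, the receptor subunit Chrnd at 2.09 ± 0.35 and the myoblast fusion gene Mymx at 4.18 ± 0.74. At day 14 none rose and 8 fell with the bursa kept, the direction of the adult genes, beside 33.0% of features called lower. Between the 2 days in kept tendon, Chrna1 fell by 2.77 ± 0.35. Removed and kept tendon at day 3 gave no call in edgeR among the 13, against 0% of features. Of these, 7 had an unadjusted p under 0.05, and Chrna1 was at 0.93 ± 0.31.

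In bursa at day 3, 6 of the 11 tested rose and none fell, beside 22.0% of features called higher and 24.1% lower: Chrna1 by 2.89 ± 0.78 (edgeR adjusted p = 0.0065), Chrnd by 5.15 ± 1.39 (0.0068) and the embryonic myosin heavy chain Myh3 by 6.66 ± 1.85 (0.0082) were among them. Levels were uneven between libraries. Myh3 ran from 0 CPM in replicate 6 to 454 CPM in replicate 1 with a median of 5.84 CPM, against 0.291 to 2.90 CPM in control bursa. The same replicate 1 was the highest of the day 3 bursae for Myog (93.3 CPM), Chrna1 (41.7 CPM) and Chrnd (38.2 CPM), as it was for the slow troponins Tnni1 (116 CPM) and Tnnc1 (46.7 CPM). At day 14 none of the 11 differed from control bursa in edgeR, against 16.3% of features called.

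Among the 37 other muscle fibre genes tested in the bursa, 1 rose and 5 fell at day 3, beside 22.0% of features called higher and 24.1% lower. The insulin-responsive glucose transporter Slc2a4 fell by 1.81 ± 0.32 (edgeR adjusted p = 0.0003), the calcium pump inhibitor Pln by 2.26 ± 0.43 (0.00055) and the sarcoglycan Sgca by 1.39 ± 0.39 (0.0093). From day 3 to day 14 Pln rose by 1.42 and Slc2a4 by 0.94. Slc2a4 is also known from adipocytes, and edgeR did not call it between control bursa and control tendon (0.09 ± 0.41). White adipocyte markers (3 of 5 measured) summed to 5637 to 13407 CPM in control bursa and 1627 to 4201 CPM in day 3 bursa. Their part in the fall of Slc2a4 was not tested.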
